A study of Mus musculus with 12 samples.

Results

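The enzymes of glycolysis considered here were 8 somatic isoforms, encoded by Hk1, Pfkl, Pfkp, Aldoa, Tpi1, Gapdh, Pgam1 and Eno1, and 2 sperm isoforms, encoded by Gapdhs and Aldoart2. Probe sets were taken from any of 3 Affymetrix mouse designs (U74Av2, U74Bv2 and U74Cv2) where the platform annotation gave 1 of these symbols and no other. Of the 10 genes 9 were found, among 15964 named genes in the series; Eno1 was not analysed here. Gene probe sets numbered 12 and covered 8 genes, and Gapdh was read by 9 control probe sets, 3 on each design. Total RNA had been isolated from 4 kinds of mouse germ cells, with 1 array for each kind on each design and 12 arrays in all. They were the mitotic type A and type B spermatogonia, here called type A cells and type B cells, meiotic spermatocytes at the pachytene stage, and haploid round spermatids. The labels give no strain, age, genotype or isolation method, and no treatment. Signals are brightness values in array units, scaled within a design, so ratios are between cell types for the same probe set and never between probe sets.

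Glycolysis splits glucose to pyruvate and yields ATP without oxygen. Spermatogonia use the enzymes found in most tissues. During meiosis and in haploid cells, germ cells switch on additional isoforms, several of them made by retrogenes, which are intron-less copies of a parent gene, and mature sperm carry such isoforms along the tail, where local ATP supply serves motility. Gapdhs encodes a sperm glyceraldehyde-3-phosphate dehydrogenase attached to the fibrous sheath of the tail, and Aldoart2 is a retrogene of the aldolase gene Aldoa.

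With 1 array per cell type and design there was no replicate and no test, and so few arrays limit the precision. A floor of 50.03 units was set on U74Av2, 50.01 on U74Bv2 and 50.03 on U74Cv2, and a ratio against a cell type below it is a lower bound, written as at least so many fold. No fold is given where both cell types were below it. The highest negative control on U74Av2, a bacterial or yeast sequence, read 32.7 units, below the floor, while on U74Bv2 and U74Cv2 the highest read 62.4 and 103.5 units, above it. Ratios were taken at 3 steps, type B over type A cells, spermatocytes over type B cells (the pachytene step) and spermatids over spermatocytes (the spermatid step). Control probe sets repeated on the 3 designs (22 of them) gave log2 ratios whose SD between designs was 0.20, 0.20 and 0.39 at these steps. That spread between designs is called technical here and cannot stand for biological replicates. The labels do not say whether 1 RNA preparation per cell type served all 3 designs. Whether the spread includes differences between cell preparations is therefore not known. In these bulk samples, fewer cells of a type and less RNA per cell cannot be told apart.

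Both sperm isoforms had their highest signal in spermatids. Gapdhs, on chromosome 7, read 32.6 units in type A cells, 73.7 in type B cells, 617.1 in spermatocytes and 8145.9 in spermatids with its brighter probe set. The signal was thus below the floor in type A cells, just over it in type B cells and highest in spermatids, with spermatocytes between. It was 8.37-fold higher in spermatocytes than in type B cells (log2 3.07) and 13.2-fold higher again in spermatids (log2 3.72). Spermatids exceeded type A cells at least 163-fold. A second Gapdhs probe set read 15.4, 23.1, 104.0 and 2728.8 units in the same order. Its signal kept the same order of cell types but lay below the floor in both spermatogonial types. It gave at least 2.08-fold for spermatocytes over type B cells and 26.2-fold for spermatids over spermatocytes (log2 4.71). For spermatids over type A cells it gave at least 54.55-fold. The pachytene ratio of the second probe set is a lower bound, so the order of its ratios at the pachytene and spermatid steps is not known. With spike-in scaling the order for the brighter probe set turned, with a log2 ratio of 3.84 at the pachytene step and 3.46 at the spermatid step. Over the alternatives run for scaling, floor and probe set, the Gapdhs log2 ratio lay between 1.06 and 3.84 at the pachytene step and between 3.46 and 4.71 at the spermatid step.

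Aldoart2, on chromosome 12, read 29.0 units in type A cells, 64.7 in type B cells, 79.3 in spermatocytes and 1124.2 in spermatids. The first 3 cell types were below or near the floor, and spermatids stood far above them. Spermatocytes read 1.23-fold higher than type B cells (log2 0.29), and spermatids 14.2-fold higher than spermatocytes (log2 3.83) and at least 22.5-fold higher than type A cells. The spermatid ratio lay between 3.49 and 3.84 (log2) over the same alternatives. At the pachytene step the log2 ratios of the sperm isoforms were thus 3.07 for Gapdhs and 0.29 for Aldoart2, while at the spermatid step they were 3.72 and 3.83.

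**Figure D1:**
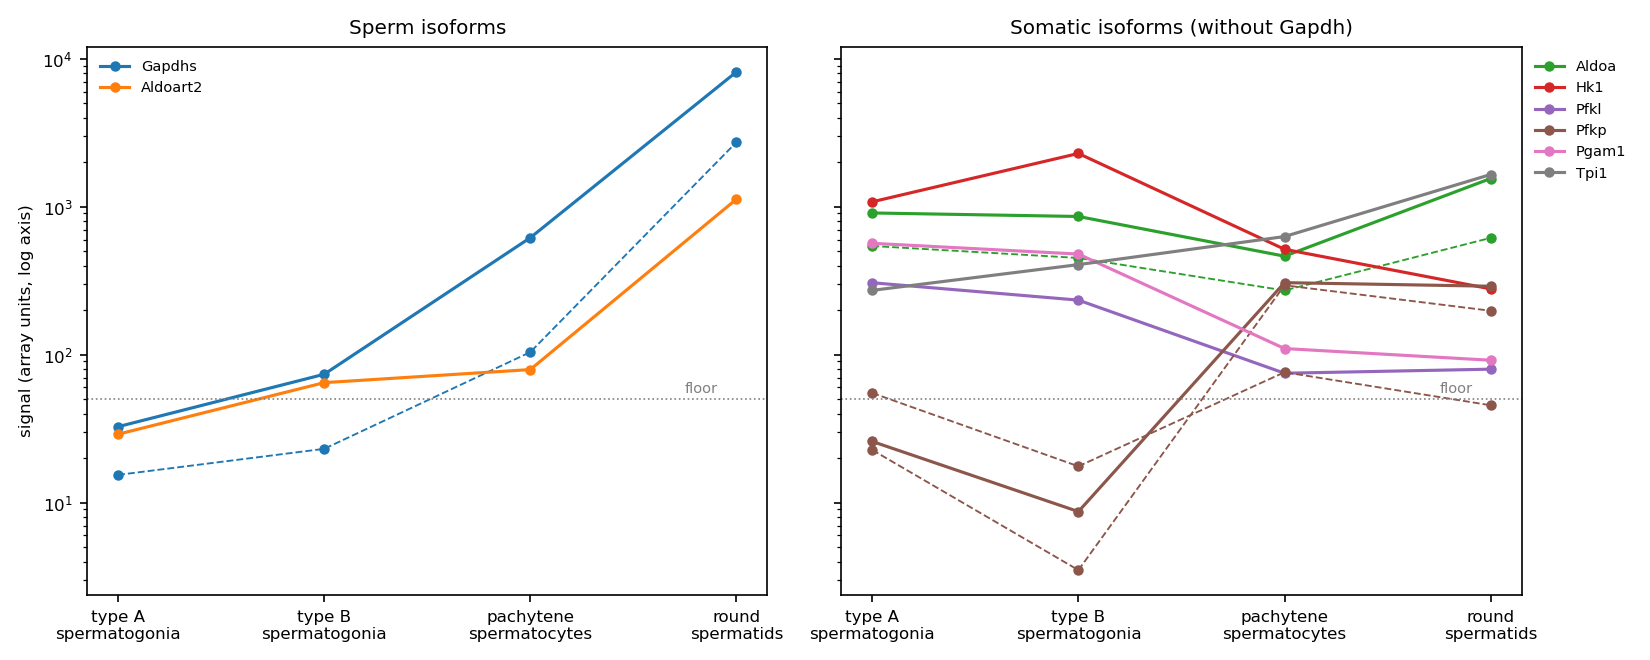
Signal of each gene probe set in array units (log axis) against cell type, 1 array per point, for the sperm isoforms (left) and the somatic isoforms other than Gapdh (right); dashed lines are further probe sets of the same gene and the dotted line is the floor of 50.03 units. Gapdhs and Aldoart2 are highest in spermatids, while Hk1, Pfkl and Pgam1 are lower in spermatocytes and spermatids than in both spermatogonial types.

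The bases before the annotated starts are shown for the sperm isoforms, which were both high in spermatids, for Gapdh, the somatic counterpart of Gapdhs, and for Hk1, whose signal ran the other way. Sequences are from RefSeq on GRCm38.p6, 250 bases up to the start, 5′ to 3′ on the strand of the gene, with matches to the letters TGATGTCA or its reverse complement TGACATCA in capitals. The windows are Gapdhs at chr7:30743682-30743931 (minus strand), Aldoart2 at chr12:55564955-55565204 (plus strand), Gapdh at chr6:125165774-125166023 (minus strand) and Hk1 at chr10:62379909-62380158 (minus strand).
Gapdhs: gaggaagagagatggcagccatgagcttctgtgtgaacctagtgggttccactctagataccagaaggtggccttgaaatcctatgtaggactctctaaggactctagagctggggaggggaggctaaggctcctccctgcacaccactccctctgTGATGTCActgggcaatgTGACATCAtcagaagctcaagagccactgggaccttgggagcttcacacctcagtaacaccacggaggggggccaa
Aldoart2: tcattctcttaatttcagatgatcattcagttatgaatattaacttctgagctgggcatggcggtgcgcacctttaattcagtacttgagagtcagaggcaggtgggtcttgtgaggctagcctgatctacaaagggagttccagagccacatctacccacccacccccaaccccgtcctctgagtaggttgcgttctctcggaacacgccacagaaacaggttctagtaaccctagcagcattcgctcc
Gapdh: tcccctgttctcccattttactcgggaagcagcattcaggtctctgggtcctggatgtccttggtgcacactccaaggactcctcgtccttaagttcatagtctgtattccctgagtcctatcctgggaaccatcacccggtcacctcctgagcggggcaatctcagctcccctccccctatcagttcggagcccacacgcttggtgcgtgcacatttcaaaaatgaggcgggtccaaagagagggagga
Hk1: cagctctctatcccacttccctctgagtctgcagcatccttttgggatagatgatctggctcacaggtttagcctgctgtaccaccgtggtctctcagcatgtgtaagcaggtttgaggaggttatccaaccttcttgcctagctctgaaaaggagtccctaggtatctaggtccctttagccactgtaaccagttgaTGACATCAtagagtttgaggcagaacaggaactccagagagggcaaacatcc

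All 10 genes, Eno1 included, had windows, 16 in all. Some windows of Aldoa overlap, as do some of Eno1, so the same letters there can be counted in more than 1 window. A total of 6 motifs was searched on both strands. The cAMP response element TGACGTCA, a site for CREB and CREM factors, was in 0 of the 16 windows and in 1.55% of all 32851 windows, and its core TGACG, which the full element contains, was in 0 and in 17.8%. The variant TGATGTCA, chosen after the Gapdhs sequence had been read, was in 2.93% of all windows and in 3 windows of 2 of the genes. Both Gapdhs windows held it on each strand, at 94 and 76 bases before the start in the window shown and at 70 and 52 in the other, at chr7:30739408-30739657, and the pair of windows shares a run of 59 bases. In Hk1 it lay 52 bases before the start, in 1 of 2 windows. The GC box GGGCGG was in 6 windows of 4 genes (Aldoa, Eno1, Pfkp and Tpi1) and in 32.7% of all windows, the CCAAT box CCAAT in 5 windows of 3 genes (Aldoa, Eno1 and Pfkp) and in 33.8%, and the TATA box TATAAA in 0 and in 12.4%. Neither the Gapdh nor the Aldoart2 window shown held any of these letters. A match describes letters and is not a bound site.

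Among the somatic isoforms, Hk1, Pfkl, Gapdh and Pgam1 were lower in spermatocytes than in type B cells, Pfkp was higher there, and Aldoa and Tpi1 had their highest signals in spermatids. Hexokinase, which traps glucose in the cell as its phosphate, was represented by Hk1 on chromosome 10. Its signal was 1079.3 units in type A cells, 2290.0 in type B cells, 515.6 in spermatocytes and 278.3 in spermatids. Type B cells were the high cell type and spermatids the low one. The ratio was 2.12-fold higher in type B than in type A cells (log2 1.09), 4.44-fold lower in spermatocytes than in type B (log2 -2.15) and 1.85-fold lower in spermatids than in spermatocytes (log2 -0.89). The log2 ratio of type B over type A cells was 0.92 with a common array median and 0.26 with arrays scaled to the spike-in controls, bacterial transcripts, both under 2-fold.

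Phosphofructokinase catalyses the committed step of glycolysis, and its liver-type and platelet-type subunits were read by Pfkl and Pfkp. Pfkl, on chromosome 10, read 306.3, 233.7, 74.9 and 79.8 units in type A cells, type B cells, spermatocytes and spermatids. Both spermatogonial types were high, and the meiotic and haploid cells were near the floor. Pfkl was 3.12-fold lower in spermatocytes than in type B cells (log2 -1.64, and -0.87 under spike-in scaling). Pfkp, on chromosome 13, showed the reverse order: its brightest probe set read 25.9, 8.7, 306.7 and 290.1 units. A second probe set from the same sequence read 22.7, 3.5, 294.4 and 198.1. Both were below the floor in spermatogonia and well above it afterwards, at least 6.13-fold and at least 5.89-fold higher in spermatocytes than in type B cells. A dimmer probe set on U74Bv2 read 55.1, 17.6, 76.1 and 45.5 units, on a design where negative controls read up to 62.4, and gave at least 1.52-fold for the same step. Between spermatocytes and spermatids, Pfkl was 1.07-fold higher and Pfkp 1.06-fold lower with its brightest probe set, both smaller than the technical spread. The Pfkl ratio changed sign with spike-in scaling (log2 -0.17). The second Pfkp probe set was 1.49-fold lower (log2 -0.57) and the one on U74Bv2 at least 1.52-fold lower (log2 -0.61). Both ratios were larger than 1 technical SD (0.39), which is no test. The U74Bv2 signals, 76.1 and 45.5 units, lay close to the floor.

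Aldolase cleaves fructose-1,6-bisphosphate into the triose phosphates. Aldoa, on chromosome 7, read 907.2, 858.9, 463.1 and 1550.6 units in type A cells, type B cells, spermatocytes and spermatids, and its second probe set read 542.7, 450.5, 271.6 and 615.6. Both probe sets were lowest in spermatocytes and highest in spermatids. The pachytene signal was 1.86-fold and 1.66-fold lower than in type B cells, and the spermatid signal 3.35-fold (log2 1.74) and 2.27-fold (log2 1.18) higher than in spermatocytes. Both carry the ending that marks probe sets shared by members of a gene family, and Aldoart2, the retrogene copy, was 14.2-fold higher at the same step. Its part in the Aldoa signal was not tested.

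Triose phosphate isomerase interconverts the products of aldolase. Tpi1, on chromosome 6, read 272.1 units in type A cells, 406.1 in type B cells, 628.4 in spermatocytes and 1650.5 in spermatids. Each cell type in this series was above the one before it. The ratios were 1.49-fold, 1.55-fold and 2.63-fold (log2 1.39), and spermatids were 6.07-fold higher than type A cells. With spike-in scaling the first ratio changed sign (log2 -0.24), and the second came to 1.15 with a common array median and to 1.40 with the spike-in controls.

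Glyceraldehyde-3-phosphate dehydrogenase oxidises the triose phosphate and is widely used as a reference gene. Gapdh, on chromosome 6, was read by control probe sets at the 5′ end, the middle and the 3′ end of the transcript, identical on the 3 designs. The 3′ probe set on U74Av2 read 3481.5 units in type A cells, 2961.9 in type B cells, 654.1 in spermatocytes and 969.1 in spermatids. On U74Bv2 it read 7107.3, 6146.9, 1431.9 and 1992.6, and on U74Cv2 12253.3, 9863.1, 2071.2 and 2329.2. On each design, the readings of both spermatogonial types exceeded all readings of spermatocytes and spermatids, with no overlap. Over the 9 readings, which come from 1 array per cell type and design and are no biological replicates, the log2 ratio was -0.29 ± 0.10 (SD) for type B over type A cells, -1.86 ± 0.27 for spermatocytes over type B cells and 0.26 ± 0.41 for spermatids over spermatocytes. Spermatocytes were 3.63-fold lower than type B cells on average, with single readings between 2.71-fold and 4.76-fold lower. At the spermatid step 8 readings were higher and 1, the 5′ set on U74Cv2, was lower (log2 -0.55), so the mean ratio was smaller than its spread. Spermatids stayed 3.71-fold below type A cells on average. For Gapdhs, spermatids were at least 163-fold above type A cells with the brighter probe set and at least 54.55-fold with the other.

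**Figure D2:**
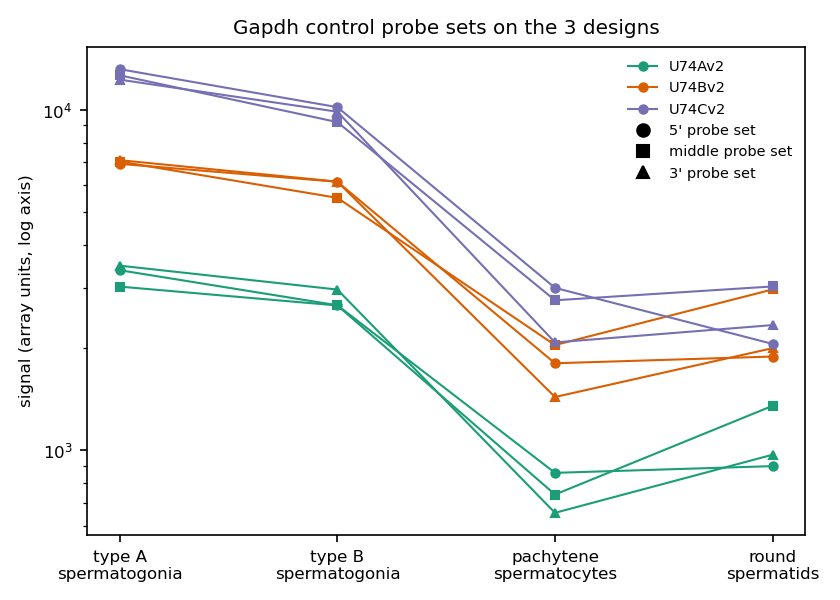
Signal of the 9 Gapdh control probe sets in array units (log axis) against cell type; colour marks the array design and the symbol the position on the transcript. All 9 lines are lower in spermatocytes than in type B cells, and 8 are higher in spermatids than in spermatocytes.

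The ratio of the 3′ to the 5′ Gapdh probe set, a measure of RNA and label quality, had a median over the 3 designs of 1.03 in type A cells, 1.001 in type B cells, 0.76 in spermatocytes and 1.08 in spermatids. By Gapdh the pachytene arrays thus stood apart, with ratios of 0.69 to 0.80. By Actb, the other control read at both ends, the medians were 2.15, 2.45, 1.51 and 1.57 in the same order, so the spermatogonial arrays stood above the later ones, and pachytene (1.48 to 1.77) and spermatid arrays (1.53 to 1.75) overlapped. The part of either difference in the ratios between spermatogonia and later cells was not tested. The pachytene signal was lower than that of type B cells in the 5′, middle and 3′ probe sets, but not by the same amount. On U74Av2, U74Bv2 and U74Cv2 the log2 ratio was -2.18, -2.10 and -2.25 in the 3′ set. It was -1.845, -1.44 and -1.74 in the middle set and -1.64, -1.77 and -1.76 in the 5′ set. Control probe sets for the opposite strand of Gapdh read at most 320.7, 510.5, 182.1 and 185.5 units in the same order of cell types. With a common median the mean log2 ratio for spermatocytes over type B cells was -1.34, and with spike-in scaling -1.15, all 9 readings being lower in both; for type B over type A cells spike-in scaling gave -1.11.

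Phosphoglycerate mutase moves the phosphate on 3-phosphoglycerate. Pgam1, on chromosome 19, read 565.8, 478.5, 110.0 and 91.7 units in type A cells, type B cells, spermatocytes and spermatids. The spermatogonial types were high and the later cells low. Spermatocytes were 4.35-fold lower than type B cells (log2 -2.12) and spermatids 6.17-fold lower than type A cells.

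Of the 6 somatic isoforms with gene probe sets, 5 were over the floor in type A or type B cells, and Pfkp in neither. Of these isoforms 1 (Hk1) was at least 2-fold higher in type B cells and 0 were lower, beside 3.92% and 3.94% of all genes. From type B cells to spermatocytes 1 was higher (Pfkp) and 3 were lower (Hk1, Pfkl and Pgam1), where 17.1% of all genes were higher and 23.2% lower. From spermatocytes to spermatids 2 were higher (Aldoa and Tpi1) and 0 lower, where 10.5% of all genes were higher and 13.7% lower. The 2 sperm isoforms were both higher at the spermatid step, and 1, Gapdhs, at the pachytene step. At the 3 steps the median log2 ratio of the somatic isoforms was -0.04, -1.27 and 0.01. That of the sperm isoforms was 0.47, 1.68 and 3.77, and that over all genes 0.01, -0.28 and -0.06. In the first somatic median Pfkp, below the floor in both cell types, entered as 0, and without it the median was -0.08. The medians over all genes left such genes out. With 6 and 2 genes these are descriptions and say nothing particular to either list.

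**Figure D3:**
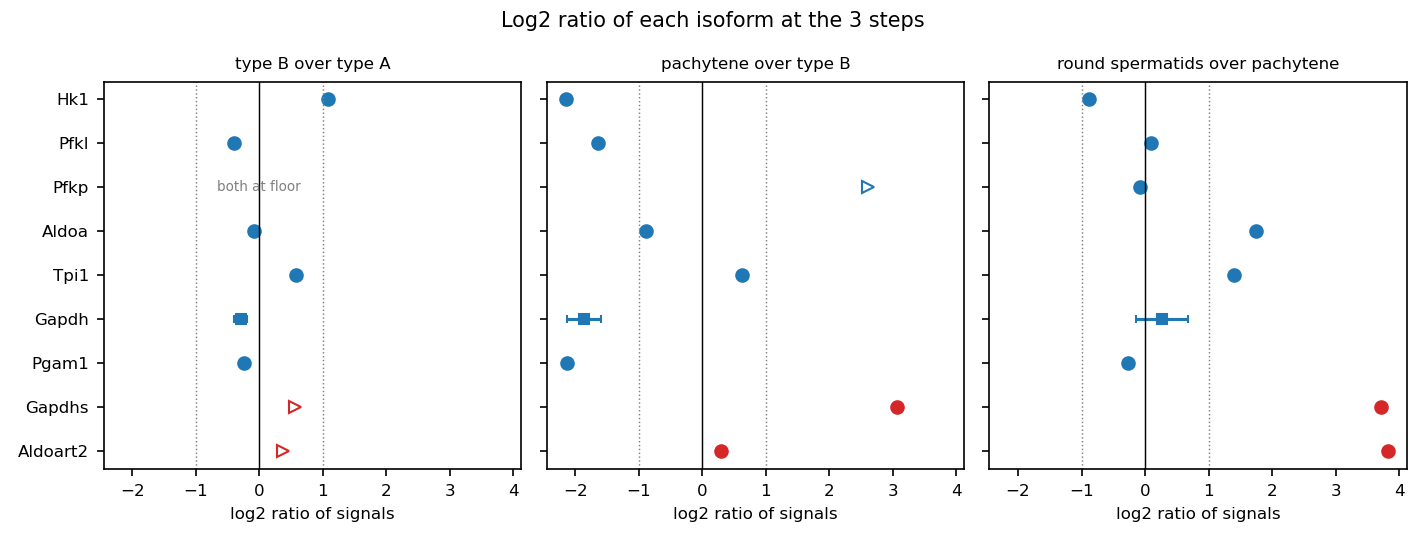
Log2 ratio of signals at the 3 steps (panels) for the somatic isoforms (blue, in the order of the pathway) and the sperm isoforms (red). Open triangles are lower bounds, the Gapdh squares are means over 9 control readings with SD bars, and dotted lines mark 2-fold; Gapdhs and Aldoart2 lie farthest right at the spermatid step, at 3.72 and 3.83.

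The scaling of the arrays moves the genes of a design at a step together, but by other amounts on another design. At the spermatid step spike-in scaling lowered the log2 ratio of Aldoa on U74Av2 from 1.74 to 1.48. It raised that of Hk3 on U74Cv2 from 0.62 to 1.06. The spike-in controls read 1.76-fold higher in type B than in type A cells and 1.63-fold lower in spermatocytes than in type B. Scaling to them shifted the median of all genes by -0.78 and 0.63 (log2) at these steps, and scaling to a common median by -0.11 and 0.47. Of all genes differing at least 2-fold, the higher made up 49.84% for type B over type A cells, 32.3% with a common median and 1.14% with the spike-in controls; for spermatocytes over type B cells they made up 42.45%, 67.16% and 74.21%. The somatic isoforms' median for spermatocytes over type B cells was -0.75 with a common median, beside 0.19 over all genes, and -0.49 with the spike-in controls, beside 0.35.

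Other enzymes of glycolysis included isoforms that were higher and isoforms that were lower at the pachytene step. Of 16 listed, 12 were measured. None differed at least 2-fold between the spermatogonial types, where 9 were over the floor in either. In spermatocytes 4 were higher and 3 lower than in type B cells, beside 17.1% and 23.2% of all genes. With a floor of 0.2 of the trimmed mean Eno2 was higher in type B than in type A cells (log2 1.03). Adpgk and Eno2 were then lower (-1.57 and -1.48) and Pklr higher (1.20) at the pachytene step. With no floor these genes also passed, and Hk3 was higher in type B cells (2.48). With spike-in scaling 2, Adpgk and Pkm, were lower in type B than in type A cells (log2 -1.19 and -1.42), beside 33.8% of all genes. At the pachytene step 4 were then higher and 1 lower, beside 29% and 10.1% of all genes. Pgam2, the muscle phosphoglycerate mutase, read 1.4 and 2.5 units in type A and type B cells, 2132.6 in spermatocytes and 2956.1 in spermatids, at least 42.6-fold higher at the pachytene step, opposite to Pgam1. Pfkm, the muscle phosphofructokinase subunit, read 108.0, 147.7, 823.9 and 523.1 units and was 5.58-fold higher, in the direction of Pfkp and opposite to Pfkl. Bpgm, which makes 2,3-bisphosphoglycerate, was 4.12-fold higher, and Eno3, the muscle enolase, 2.82-fold higher.

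The 3 enzymes that were lower included Hk2, the muscle hexokinase, which read 350.1, 328.2, 101.7 and 32.2 units and was 3.23-fold lower at the pachytene step, as Hk1 was. Pyruvate kinase Pkm read 1318.9, 870.0, 286.5 and 462.3 units and was 3.04-fold lower. Under spike-in scaling these log2 ratios were -0.92 for Hk2 and -0.83 for Pkm, under 2-fold, and the mean over its probe sets gave -0.85 for Hk2. Phosphoglycerate kinase Pgk1, on the X chromosome, read 173.0, 158.3, 43.9 and 60.1 units and was at least 3.17-fold lower, but under 2-fold with a floor of 0.8 of the trimmed mean (log2 -0.66) or with the mean over its probe sets (-0.83). Its autosomal retrogene Pgk2, on chromosome 17, read 11.9, 3.8, 333.4 and 2507.2 units, at least 6.66-fold higher at the pachytene step and 7.52-fold higher at the spermatid step. Pgk2 was below the floor in both spermatogonial types and, as Gapdhs was, higher in spermatocytes and highest in spermatids. The other measured sperm isoform, enolase Eno4, read 186.1, 269.7, 423.7 and 347.8 units on U74Cv2 and stayed under 2-fold at each step, but passed it at the pachytene step with a common median (log2 1.08) and with spike-in scaling (1.42).

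At the spermatid step 10.5% of all genes were at least 2-fold higher and 13.7% lower. Of the 12 other enzymes 1 was higher, the liver pyruvate kinase Pklr at 57.4 and 121.9 units (2.12-fold), and 1 was lower, Hk2 (at least 2.03-fold). Both came under 2-fold with a floor of 0.8 (log2 0.28 and -0.02) and with the mean over probe sets (0.54 and -0.51), and Pklr also with spike-in scaling (0.82). With spike-in scaling Hk3 was higher (1.06) and Eno3 lower (-1.10). The counts were then 1 higher and 2 lower, beside 11.1% and 15.9% of all genes. Pkm passed 2-fold with its second probe set (1.02). With no floor Eno2 was higher (1.65) and Aldoc lower (-1.31). The 4 measured regulators, Pfkfb2, Pfkfb3, Pfkfb4 and Tigar, which set or degrade fructose-2,6-bisphosphate, differed by less than 2-fold at each step. Pfkfb3 was below the floor in both spermatocytes and spermatids and had no ratio there. With another scaling Pfkfb4 passed 2-fold at the pachytene step (log2 1.03 with a common median, 1.01 with spike-in scaling), and Pfkfb2 was lower in type B than in type A cells with spike-in scaling (-1.05); Pfkfb3, close to the floor, passed there with a floor of 0.2 or none (1.16). Lactate dehydrogenases, which regenerate NAD+ from pyruvate, had 3 of 4 genes higher and 1 lower at the pachytene step, beside 17.1% and 23.2% of all genes. Ldha was 10.2-fold higher, Ldhc at least 174-fold and Ldhal6b at least 307-fold, and Ldhb was 2.77-fold lower. The Ldhb ratio came under 2-fold with a common median (log2 -0.95), spike-in scaling (-0.69) and the mean over probe sets (-0.73). At the spermatid step 0 of these 4 passed 2-fold, Ldhb being at least 1.89-fold lower, and Ldhb passed it with spike-in scaling (log2 -1.16).

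**Figure D4:**
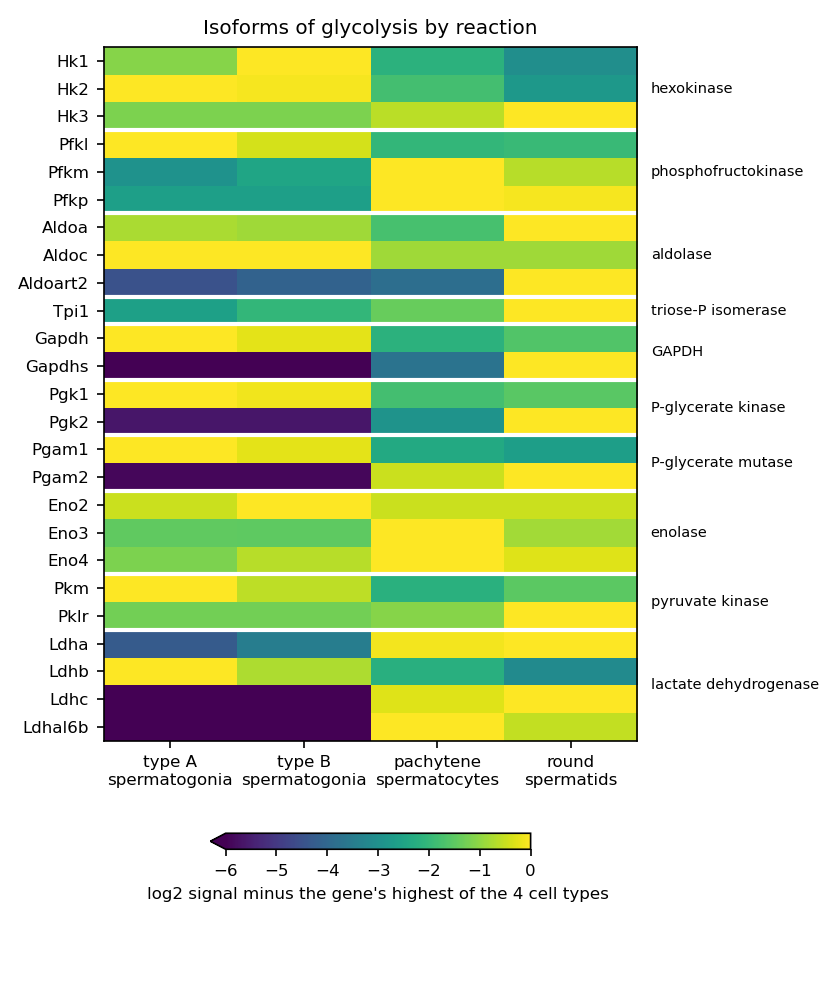
Log2 signal of each isoform minus its own highest value over the 4 cell types (colour), for 25 genes grouped by reaction in 10 groups; values below the floor are drawn at the floor, colours stop at -6 and Gapdh is the mean of its U74Av2 control probe sets. Within phosphoglycerate mutase, phosphoglycerate kinase and GAPDH, 1 isoform is brightest in type A cells and the other in spermatids.

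The defining genes of the labelled cell types were mostly in place, with exceptions. The pachytene marker Sycp3 read 60.4 units in spermatocytes on U74Cv2, under the highest negative control of that array (61.2). The spermatid marker Prm2 read only 67.3 units in spermatids. Spermatogonial markers (5 genes) summed to 2979.6 units in type A and 2268.8 in type B cells, and to 257.3 in spermatocytes and 922.5 in spermatids. From spermatocytes to spermatids Sall4 went from 96.8 to 587.8 units and Dmrt1 from 61.2 to 129.0. Spermatid markers (6 genes) summed to 180.9, 227.9, 4045.3 and 30253.8 units, with Prm2 and Acrv1 below the floor in spermatocytes but Prm1 at 1321.0 there, so the pachytene array carried some signal of spermatid genes where Gapdhs read 617.1. Its part in that value was not tested. Fibroblast markers (7 genes) summed to 5234.7 units in type A cells, 12051.0 in type B, 167.3 in spermatocytes and 426.6 in spermatids, and myoid markers (6 genes) to 2914.9, 4339.0, 552.3 and 404.4. They moved in the direction of Hk1 at the first 2 steps, with 5 of 7 fibroblast markers at least 2-fold higher in type B than in type A cells (1 of 7 with spike-in scaling) and 7 of 7 lower in spermatocytes; Col1a1, Col1a2, Col3a1, Lum and Bgn were below the floor in both later cell types.

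Sertoli markers (10 genes, Amh below the floor in each cell type) summed to 5910.6, 4317.8, 2850.6 and 1045.8 units. Clu made up the largest part in the first 3 cell types, at 3236.6, 2189.5, 1716.7 and 214.1, while Fshr read 143.5, 159.5, 172.5 and 183.3. Leukocyte markers (7 genes, Ptprc below the floor in each) summed to 489.2, 831.6, 333.6 and 429.6. Leydig markers (5 measured) summed to 392.8, 681.0, 662.9 and 182.4, endothelial markers (4) to 253.9, 352.1, 101.7 and 125.1, erythroid markers (2 measured) to 350.8, 877.5, 160.9 and 116.5, and pachytene markers (4 measured) to 795.4, 608.5, 26152.6 and 20897.7. The part of these cells in the signals of the somatic enzymes, which they also express, was not tested.

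The genes with the most similar profile were found by the root mean square difference of centred log2 signals over the 4 cell types, among genes on U74Av2 over the floor in the same cell types. For Gapdhs the nearest of 118 genes were Odf2, an outer dense fibre protein of the sperm tail (0.84), Znrf4 (0.95) and Cdkn3 (0.97). Odf2 read 46.3, 53.2, 1358.6 and 3627.6 units. For Aldoart2 they were the histone gene H2bc22 (0.35), Pdzk1ip1 (0.44) and Ppp2r2b (0.49), each nearer to Aldoart2 than the nearest gene was to Gapdhs. For Gapdh the nearest of 3058 genes were Stoml2 (0.07), Susd6 (0.07) and Midn (0.07), each high in both spermatogonial types and low afterwards.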

How the data were processed

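The authors deposited linear intensity values, 1 signal for each probe set, from MAS5, per the submitters' processing notes; its version and settings are not given in the sources used here. Per the labels, each is a single array with one-cycle labelling. The deposited arrays had 2% trimmed means between 125.0 and 125.1. The 4 arrays of a design were scaled to the geometric mean of theirs, values below 0.4 of that mean were set to this floor, and log2 was taken. A gene was represented by its probe set with the highest mean signal. Of 36701 probe sets that are not controls 29131 had 1 symbol, of which 29044 matched RefSeq (GRCm38.p6) by gene identifier. Probe sets with several symbols (3 for Gapdh and its pseudogenes) were left out, and control probe sets stayed out of gene counts. A gene entered the shares and the median of all genes at a step if over the floor in either cell type. Counts for a list are out of its measured genes, and a gene below the floor in both cell types counts as not different. In the medians of the isoforms such a gene entered as 0. No test was run, having 1 array per cell type and design. All 10 listed genes were to be named, and up to 4 genes per pathway list and step, by size of ratio among those at least 2-fold different; the 3 nearest profiles were named for Gapdhs, Aldoart2 and Gapdh. The members and lists were chosen with earlier results of these data known. Alternatives covered scaling, floor, choice of probe set and a 4-fold threshold. Counting was tested on simulated data. Python 3.11.15, pandas 2.3.3 and numpy 2.4.6 were used.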

Additional observations from a re-analysis of the deposited data

How the results depend on the processing

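A gene below the floor in both cell types entered the following medians as 0. With a common median, the somatic isoforms' median log2 ratio for spermatocytes over type B cells went from -1.27 to -0.75. The sperm isoforms' median went from 1.68 to 2.20. With spike-in scaling these medians were -0.49 and 2.38. For type B over type A, spike-in scaling moved the somatic median from -0.04 to -0.57 and the sperm median from 0.47 to 0.016, and a common median moved the latter to 0.16. A floor of 0.8 of the trimmed mean gave -1.06 (somatic) and 1.31 (sperm, with Aldoart2 entered as 0) for spermatocytes over type B cells. It gave 0.00 (sperm) for type B over type A cells, where both sperm isoforms were below it and entered as 0. With no floor, or one of 0.2, the last was 1.17, and with the highest negative control as the floor 1.08. The second probe set, or leaving out probe sets with special name endings, replaced the brighter Gapdhs probe set, and gave sperm medians of 0.19, 0.67 and 4.27 at the 3 steps; the mean over probe sets gave 1.18 for spermatocytes over type B cells. Leaving out special endings, which removes Aldoa, or adding Gapdh from its control probe sets, chosen after seeing the data, each gave a somatic median of -1.64 there.

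Of the 8 genes, 1 was at least 2-fold higher in type B than in type A cells, beside 3.92% of all genes. The count was 0 with a common median, with spike-in scaling or at 4-fold, 3 with no floor or a floor of 0.2, and 2 with the negative control floor. The count lower there, 0, became 2 with spike-in scaling, where 33.8% of all genes were lower, and 1 with no floor. At the spermatid step, the count higher was 4, beside 10.5% of all genes, and 2 at 4-fold. The count lower, 0, became 1 (Hk1) with spike-in scaling, where 15.9% of all genes were lower. Of the values of single genes under the alternatives, 147 equalled the reported value, many because a gene has 1 probe set and could not move; 50 others moved within the technical SD and 46 beyond it. Tpi1 and Pfkl changed sign as given with their values. Signal over background limits Gapdhs and Aldoart2 in type A cells, and Pfkp in both spermatogonial types, to bounds. No paired analysis was possible because each cell type had 1 array per design.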

Other observations

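Sugar and monocarboxylate carriers bring glucose and lactate to germ cells, and their list also held Bsg, which is not itself a carrier. Of its 9 genes, 6 were over the floor in type B cells or spermatocytes. Among these, 4 were at least 2-fold higher in spermatocytes and 0 lower, where 17.1% of all genes were higher and 23.2% lower. With a common median or spike-in scaling 5 were higher, Bsg being added, where 25.5% and 29% of all genes were. The glucose carrier Slc2a3 read 59.3 units in type A cells, 69.8 in type B cells, 5344.2 in spermatocytes and 1100.0 in spermatids. It was 76.6-fold higher at the pachytene step and 4.86-fold lower at the spermatid step, so its highest signal came a stage before that of Gapdhs. The monocarboxylate carrier Slc16a7 read 2.1, 3.2, 302.6 and 2333.6 units, at least 6.05-fold higher at the pachytene step and 7.71-fold higher at the spermatid step. Its second probe set was below the floor in type B cells, spermatocytes and spermatids, and gave no ratio at either step. Slc2a8 was 2.22-fold higher at the pachytene step, and under 2-fold with the mean over its probe sets (log2 0.57). The fructose carrier Slc2a5 was 10.3-fold higher with its brighter probe set, but its second probe set gave a log2 ratio of -1.14 and the mean over probe sets 0.74. Slc2a1, the general glucose carrier, read 61.0 units in type A cells and was below the floor in the other cell types.

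Among 5 enzymes of gluconeogenesis, Fbp1, the fructose-1,6-bisphosphatase that runs opposite to phosphofructokinase, read 4.1, 6.3, 5703.9 and 5666.0 units. It was below the floor in both spermatogonial types and at least 114-fold higher in spermatocytes, with a 1.01-fold difference between spermatocytes and spermatids. Fbp2 and Pck1 were below the floor in each cell type. Pck2 was at least 3.57-fold higher in type B than in type A cells and 3.18-fold lower in spermatocytes, but these ratios came under 2-fold with the negative control floor (log2 0.79 and -0.79). With its second probe set the first ratio changed direction (log2 -0.44) and the other was -0.29.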
